A study of Rattus norvegicus with 6 samples.

Results

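The miR-17-92 cluster and its paralogue, the miR-106b-93-25 cluster, were followed in rat myocardium after myocardial infarction. Their members were chosen by name, as 6 mature miRNAs of miR-17-92 (rno-miR-17-5p, rno-miR-18a-5p, rno-miR-19a-3p, rno-miR-20a-5p, rno-miR-19b-3p and rno-miR-92a-3p) and 3 of miR-106b-93-25 (rno-miR-106b-5p, rno-miR-93-5p and rno-miR-25-3p, all named without the prefix from here on), which makes 9 of the 758 miRNAs on the array. All animals were male Sprague–Dawley rats without a transgene, and their age is not given in the sources used here. In the 3 rats of the model group the left anterior descending coronary artery had been tied off, and the tissue came from the margin of the infarct. In the 3 rats of the control group the thread was passed and not tied. Total RNA of each rat was taken 4 weeks after surgery and hybridised to 1 single-colour Agilent Rat miRNA array.

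Both clusters are transcribed as long precursors that are cut into several miRNAs. The miR-17-92 precursor is induced by Myc and E2F factors and is known for promoting cell division and survival through targets such as the death factor Bim. In the heart it has been linked to cardiomyocyte proliferation, miR-18a and miR-19 to repression of matrix genes such as connective tissue growth factor, and miR-92a to restraint of vessel growth by endothelial cells. The miR-106b-93-25 cluster lies in an intron of Mcm7, a subunit of the helicase that unwinds DNA for replication.

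The mature sequences are shown because the clusters share seeds, the bases 2 to 8 that pair with targets, so that members of different clusters can act on the same messages. All 9 names matched the RefSeq sequences of the rat assembly GRCr8, where the mature miRNAs of miR-17-92 span 762 bases at chr15:98587861-98588622 on the plus strand and those of miR-106b-93-25 span 472 bases at chr12:22156652-22157123 on the minus strand. In the sequences below, written 5′ to 3′, capitals mark the seed. The first 4 share 1 seed, miR-18a-5p differs from them within the seed, the miR-19 pair has its own, and the last 2 share another.
miR-17-5p: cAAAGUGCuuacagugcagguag
miR-20a-5p: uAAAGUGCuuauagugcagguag
miR-106b-5p: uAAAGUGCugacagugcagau
miR-93-5p: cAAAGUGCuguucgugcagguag
miR-18a-5p: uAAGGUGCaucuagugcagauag
miR-19a-3p: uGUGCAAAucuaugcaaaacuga
miR-19b-3p: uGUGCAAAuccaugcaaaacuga
miR-92a-3p: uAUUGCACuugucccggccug
miR-25-3p: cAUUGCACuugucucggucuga

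Several of these miRNAs are so alike that a probe may bind more than 1 of them. Compared base by base from the 5′ end, miR-19a-3p and miR-19b-3p differ at 1 of 23 positions, and miR-17-5p and miR-20a-5p at 2 of 23. Between the clusters, miR-106b-5p differs from miR-17-5p and from miR-20a-5p at 3 of the 21 positions compared, miR-93-5p differs from each of them at 4 of 23, and miR-25-3p differs from miR-92a-3p at 3 of 21. The mature miR-17-5p, miR-19b-3p and miR-92a-3p are each also encoded a second time in the miR-106a-363 cluster on chromosome X, at chrX:137343615-137343637, chrX:137343070-137343092 and chrX:137342945-137342965 on the minus strand. The array cannot tell these copies apart, and cross-hybridisation between members was not tested.

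Between 206 and 222 of the 758 miRNAs were detected per array, where the signal of a miRNA is the sum of those of its probes that exceed 3 times their own error. Signals are in arbitrary intensity units after background subtraction. For comparison each array was divided by its 75th percentile over the 198 miRNAs detected on all 6 arrays, and log2 was taken. The 6 arrays shared 1 slide and 1 scan time, in which row 1 held the control arrays with model array 1, and row 2 held the other model arrays, 2 and 3. Of the 9 members, 8 were detected on all 6 arrays and miR-18a-5p on none. The 8 members therefore entered the comparison of 214 miRNAs without regard to the group in which they were brighter.

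At the margin of the infarct, 1 of the 8 members was lower than in the control group after adjustment over all 214 miRNAs, miR-92a-3p, and 0 were higher (limma with Benjamini-Hochberg adjustment, adjusted p under 0.05). At an unadjusted p under 0.05 in limma, 2 were lower, miR-92a-3p and miR-20a-5p, and 0 were higher, beside 23.8% of all 214 that were lower. Of all 214 miRNAs, 12.6% were called lower and 10.3% higher, so the share of members called is near the background. The median log2 fold change of the 8 members was -0.15, beside -0.14 over all 214 miRNAs and -0.15 over the 198 detected on all arrays. By cluster, the 5 detected members of miR-17-92 had log2 fold changes between -0.37 and -0.11, and the 3 of miR-106b-93-25 between -0.13 and 0.01. Since the median miRNA moved by -0.15 after this scaling, changes relative to that median are given beside the main results. The series-wide split of 22 higher and 27 lower calls became 30 and 16 with each array centred on its median deviation, 19 and 47 when the 75th percentile was taken over all miRNAs, 23 and 16 with quantile normalization, 19 and 0 without scaling, 23 and 14 with the authors' normalized values and 35 and 1 with the totals as deposited.

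**Figure D1:**
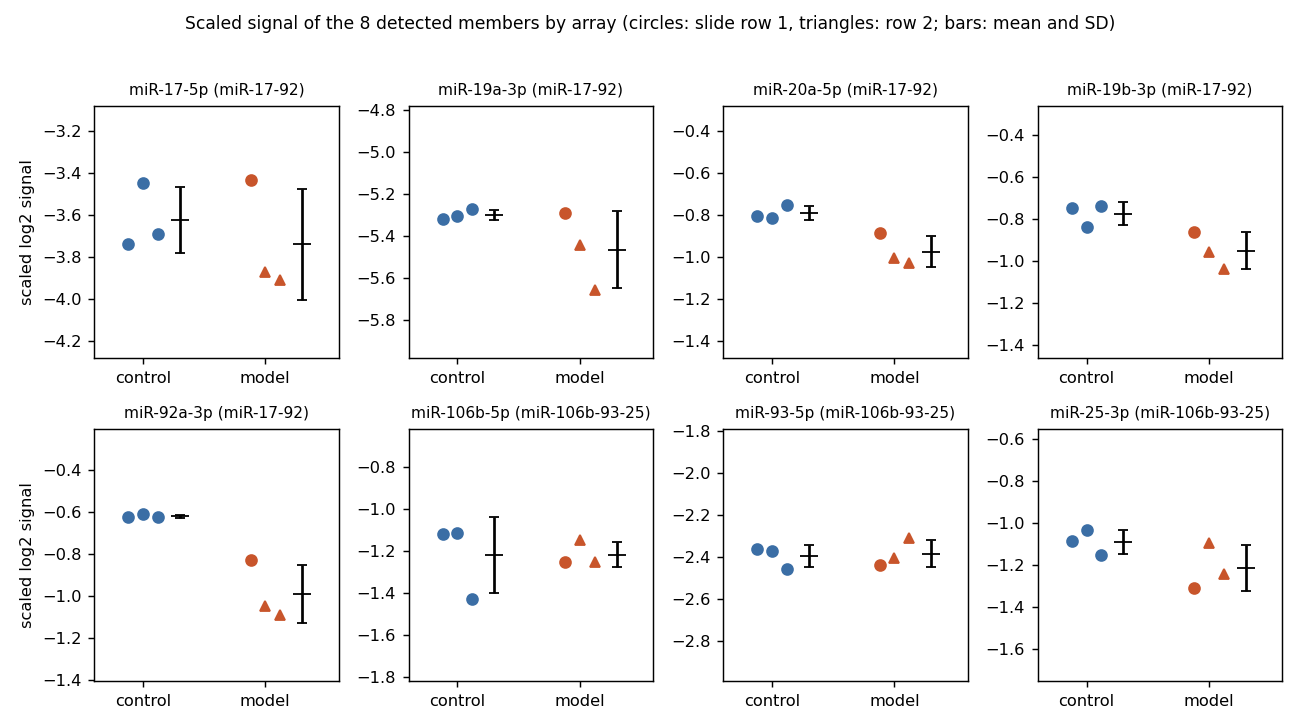
Scaled log2 signal (vertical axis) of the 8 detected members on each array, control in blue and model in orange, with circles for row 1 of the slide, triangles for row 2, and the group mean and SD (n = 3) in black. For miR-92a-3p, miR-20a-5p and miR-19b-3p the 3 model arrays lie under the 3 control arrays, and for the other 5 the groups overlap; every panel spans the same range of log2 units.

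miR-92a-3p, whose block is known to favour vessel growth in ischaemic tissue, had signals of 94.0, 124 and 94.3 in control rats 1, 2 and 3 and of 114, 93.2 and 78.9 in the model rats. These raw signals overlap between the groups. After scaling, its log2 signal was -0.62, -0.61 and -0.63 in the control rats and -0.83, -1.05 and -1.09 in the model rats, so that the model arrays all lay lower and model array 1 lay nearest to the control group. The group means were -0.62 ± 0.0070 and -0.99 ± 0.14 (SD, n = 3 each). The log2 fold change was -0.37 (standard error, SE, 0.09; limma adjusted p = 0.0355), which puts the model group at 77.4% of the control group with a 95% interval of 66.1% to 90.5%. Relative to the median miRNA it was -0.22, and that median of -0.15 lay within the 95% interval of -0.60 to -0.14. Among the 27 lower calls it was the 26th in size, beside a median log2 fold change of -0.60 for those calls. The exact permutation test of 3 arrays against 3 gave p = 0.10 (two-sided), the smallest that this design allows.

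The call of miR-92a-3p held in 6 of 22 other settings. Those 6 either kept its log2 fold change at -0.37 or left out model array 1, so they are not separate evidence. In 22 of 22 settings its log2 fold change was below 0, between -0.50 and -0.031. It was -0.031 with the totals as deposited (limma adjusted p = 0.856). With normexp background correction, whose added offset of 50 shrinks log2 differences, it was -0.19 (limma adjusted p = 0.0956). With the totals as deposited only the array scaling differs for miR-92a-3p, whose totals hold its own probes alone. With each array centred on its median deviation the adjusted p in limma was 0.182 at a log2 fold change of -0.25. Left out 1 at a time, control arrays 1, 2 and 3 gave adjusted p of 0.154, 0.0868 and 0.0767 in limma, model arrays 2 and 3 gave 0.0904 and 0.0907, and model array 1 gave 0.0173. The log2 fold changes were -0.40, -0.38 and -0.39 without control arrays 1, 2 and 3 and -0.47, -0.35 and -0.33 without model arrays 1, 2 and 3. With a block for slide row, which leaves model array 1 against the control arrays, the log2 fold change was -0.21 (adjusted p = 0.167 in limma). Over the 22 settings it ran from 0.0173 to 0.856.

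miR-17-5p and miR-20a-5p carry the seed for which the family is named, with targets among inhibitors of the cell cycle. The signal of miR-20a-5p was 83.0, 107 and 86.4 in the control rats and 110, 95.9 and 82.4 in the model rats. On the scaled log2 axis the values were -0.80, -0.82 and -0.75 against -0.89, -1.01 and -1.03, with the model arrays all lower (exact permutation test, two-sided, p = 0.10). Its log2 fold change was -0.18 (SE 0.07), with an adjusted p of 0.128 in limma and a 95% interval of 77.5% to 99.9% of the control level. Relative to the median miRNA this is -0.04.

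The signal of miR-17-5p was 10.9, 17.4 and 11.3 in the control rats and 18.8, 13.2 and 11.2 in the model rats. Control array 2 and model array 1 stood above the others, and on those arrays alone the dimmer of its 2 probes was counted as detected. That probe read 3.20 on control array 2 and 2.98 on model array 1, at 3.17 and 3.14 times its error, and between 2.40 and 2.93 times its error on the other 4 arrays. The brighter probe, detected on all 6, read 10.9, 14.2 and 11.3 in the control rats and 15.8, 13.2 and 11.2 in the model rats. The log2 fold change of the summed signal was -0.11 (SE 0.16, limma adjusted p = 0.615), with a 95% interval of 70.3% to 121% of the control level. The brighter probe alone gave -0.10 after scaling.

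miR-19a-3p and miR-19b-3p share a seed that no member of the other cluster carries. miR-19b-3p read 86.4, 105.9 and 87.1 in the control rats and 112, 99.3 and 81.9 in the model rats. Scaled, these were -0.75, -0.84 and -0.74 against -0.86, -0.96 and -1.04 on the log2 axis, with model array 1 just under control array 2 and no overlap (exact permutation test, two-sided, p = 0.10). Its log2 fold change was -0.18 (SE 0.08, limma adjusted p = 0.160), an interval of 77.1% to 101% of the control level. miR-19a-3p lay close to the detection limit, at 3.63, 4.78 and 3.77 in the control rats and 5.19, 4.43 and 3.33 in the model rats. Its groups overlapped after scaling, and its log2 fold change was -0.17 (SE 0.11, limma adjusted p = 0.293). Of its 2 probes, 1 was detected on 6 arrays and the other on 0. The sum over both probes of miR-18a-5p lay between 1.26 and 2.85 over the 6 arrays, and neither probe reached 3 times its error on any of them, so its change could not be measured here.

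miR-106b-5p and miR-93-5p carry the miR-17 seed in the other cluster. miR-106b-5p read 66.7, 87.3 and 53.9 in the control rats and 85.2, 86.9 and 70.6 in the model rats. On the scaled log2 axis this was -1.12, -1.12 and -1.43 against -1.25, -1.15 and -1.25, where control array 3 lay under all others and the groups overlapped. The log2 fold change was 0.00 (SE 0.11, limma adjusted p = 0.985), with an interval of 82.9% to 121% of the control level. miR-93-5p read 28.2, 36.6 and 26.5 in the control rats and 37.5, 36.4 and 33.9 in the model rats. Its groups overlapped after scaling, with a log2 fold change of 0.01 (SE 0.07, limma adjusted p = 0.938) and an interval of 88.7% to 115%. Relative to the median miRNA, these values are 0.15 and 0.16.

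miR-25-3p has the seed of miR-92a-3p and is known in cardiomyocytes as a repressor of the calcium pump of the sarcoplasmic reticulum. It read 68.5, 92.4 and 65.6 in the control rats and 82.1, 90.4 and 71.3 in the model rats. On the scaled log2 axis the values were -1.08, -1.03 and -1.15 against -1.31, -1.09 and -1.24, with model array 2 among the control arrays. Its log2 fold change was -0.13 (SE 0.09, limma adjusted p = 0.311), an interval of 79.1% to 106.3% of the control level.

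In all, the groups did not overlap for 3 of the 8 members, all lower in the model group, beside 47.2% of the 214 miRNAs in either direction and 30.8% in the lower direction.

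**Figure D2:**
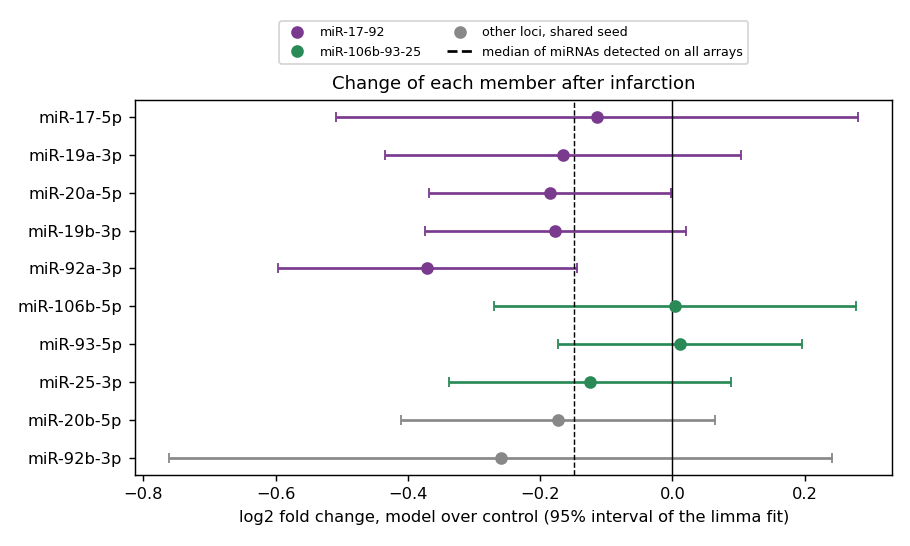
Log2 fold change of each detected member, model over control, with the 95% interval of the limma fit (horizontal axis), for miR-17-92 in purple, miR-106b-93-25 in green and miRNAs of other loci with a shared seed in grey. The dashed line at -0.15 marks the median over the 198 miRNAs found on every array, and it lies inside the intervals of 8 of the 8 members, at the edge of that of miR-92a-3p.

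A comparison of the clusters within an array does not depend on the factor by which an array is divided. For each array, the mean log2 signal of the 3 detected members of miR-106b-93-25 was taken from that of the 5 detected members of miR-17-92, and the result is given relative to the control mean. It was -0.07, -0.04 and 0.12 in the control rats and 0.06, -0.26 and -0.29 in model rats 1, 2 and 3. Model arrays 2 and 3 thus lay under all control arrays, and model array 1 lay among them. The mean of the model group was -0.17, with SDs of 0.10 (control) and 0.19 (model, n = 3 each), so the groups overlapped and the shift was within the spread of the model arrays. Without control array 3 it was -0.11, without model array 1 it was -0.28, and without model array 2 or 3 it was -0.12 or -0.10. On control array 2 and model array 1 alone the miR-17-5p signal included its dimmer probe. With processed signals averaged over probes, detected or not, the mean of the model group was -0.19. With normexp background correction, which changes the signals themselves and adds an offset of 50 that shrinks log2 differences, it was -0.075. The median log2 fold change over the 198 miRNAs detected on all arrays was -0.085 in that setting, beside -0.15 in the main one. Model array 1 is the model array that shared its slide row with the control arrays, and the part of the row was not tested.

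Members with 1 seed in different clusters also had model arrays 2 and 3 lowest. For miR-92a-3p less miR-25-3p the values relative to the control mean were -0.01, -0.05 and 0.06 in the control rats and 0.01, -0.42 and -0.32 in the model rats. For miR-20a-5p less miR-93-5p they were -0.05, -0.05 and 0.10 against -0.06, -0.21 and -0.32, with no overlap but a gap under 0.01 between model array 1 and the nearest control array. The groups overlapped for the other between-cluster pairs with the miR-17 seed. In these, model array 1 lay at -0.07 for miR-20a-5p less miR-106b-5p, at 0.22 for miR-17-5p less miR-106b-5p and at 0.23 for miR-17-5p less miR-93-5p. On model array 1 and control array 2 alone the miR-17-5p signal included its dimmer probe, which raised it there. Within miR-17-92, miR-92a-3p less miR-19b-3p was -0.03, 0.07 and -0.04 in the control rats and -0.13, -0.25 and -0.21 in the model rats, so that here all model arrays, the first included, lay lower. Against miR-20a-5p, miR-92a-3p was likewise lower on all model arrays, at -0.11, -0.21 and -0.23. By contrast, miR-19b-3p less miR-20a-5p stayed between -0.04 and 0.04 on all 6 arrays. Within miR-106b-93-25 the model means were 0.13 for miR-106b-5p less miR-25-3p and 0.14 for miR-93-5p less miR-25-3p. For miR-106b-5p less miR-93-5p the model mean was -0.01, and in all of these pairs the groups overlapped.

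**Figure D3:**
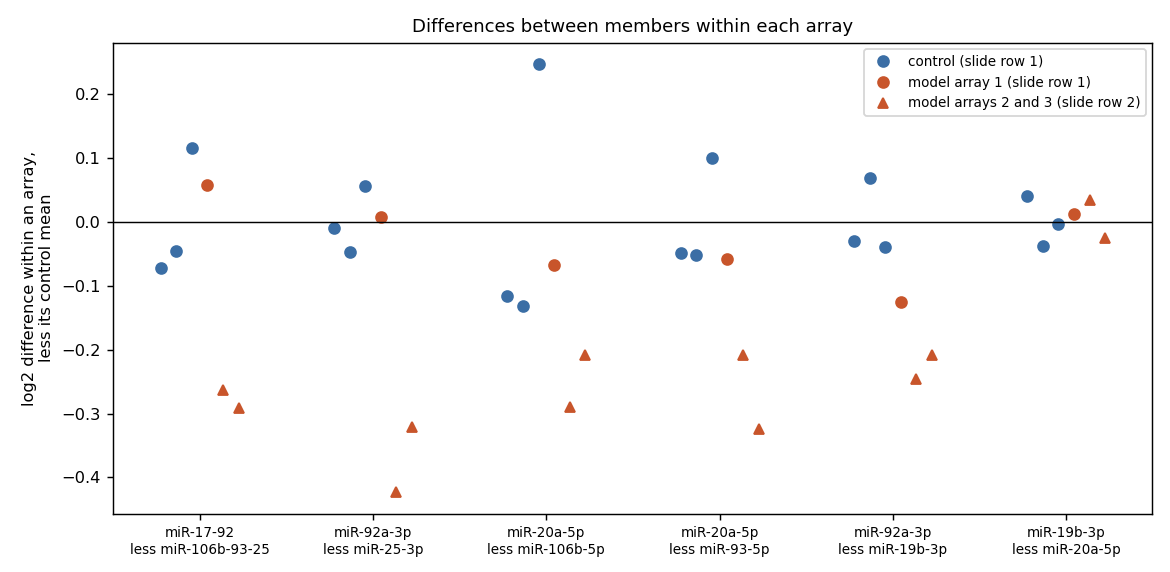
Differences in log2 signal between the clusters and between single members within each array, less the mean of the control arrays (vertical axis, log2 units), with controls as blue circles, model array 1 as an orange circle and model arrays 2 and 3 as orange triangles. In the cluster difference model arrays 2 and 3 lie at -0.26 and -0.29 and model array 1 at 0.06, whereas miR-19b-3p and miR-20a-5p keep their difference within 0.04 on every array.

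Each member was read by 2 probes on the same arrays. For miR-92a-3p the probes gave log2 fold changes of -0.37 and -0.38, the most alike of the 8 members. Those of miR-20a-5p gave -0.21 and -0.14, those of miR-19b-3p -0.19 and -0.11, and those of miR-25-3p -0.12 and -0.19. For miR-106b-5p they were -0.01 and 0.05, and for miR-93-5p 0.01 and 0.06. Probes not detected on all arrays stood apart, with -0.49 for the dimmer probe of miR-17-5p and -0.34 for that of miR-19a-3p. Both probes share the RNA of an array and are no replicates.

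**Figure D4:**
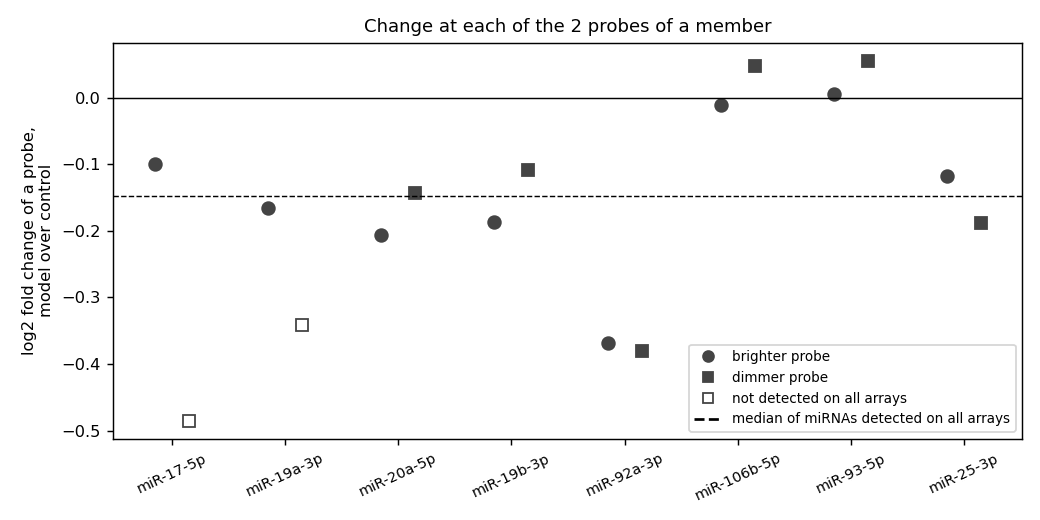
Log2 fold change of each of the 2 probes per member, model over control after array scaling (vertical axis), with circles for the brighter probe, squares for the dimmer and open symbols for probes not detected on all 6 arrays. The probes of miR-92a-3p agree at -0.37 and -0.38, while the open symbols of miR-17-5p and miR-19a-3p lie at -0.49 and -0.34, under their brighter probes.

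Of the 12 other arms of the precursors, the copies on chromosome X included, which are strands that are mostly degraded, 12 were on the array and 0 were detected on any of the 6 arrays. Their summed probe signals ran from -2.17 to 2.49. Of the miR-106a-363 cluster, miR-20b-5p was detected on 6 arrays, while miR-20b-3p, miR-363-3p and miR-363-5p were detected on 0. The signal of miR-20b-5p, which has the miR-17 seed and differs from miR-17-5p and from miR-20a-5p at 2 of 23 positions each, was 22.5, 30.5 and 24.0 in the control rats and 32.5, 26.0 and 22.5 in the model rats. Its log2 fold change was -0.17 (SE 0.10, limma adjusted p = 0.224). Among the 685 miRNAs of the array with a RefSeq sequence, the others with a member's seed were miR-92b-3p, miR-363-3p and miR-32-5p, of which miR-92b-3p was detected on 6 arrays. It differs from miR-92a-3p at 2 of 21 positions compared, and it comes from its own gene at chr2:176931663-176931684. Its signal was 10.2, 12.3 and 11.1 in the control rats and 8.78, 13.1 and 11.7 in the model rats. Here model array 1 was the lowest and the groups overlapped, with a log2 fold change of -0.26 (SE 0.20, limma adjusted p = 0.360). The sequences of both, with the seed in capitals, can be set against those above.
miR-20b-5p: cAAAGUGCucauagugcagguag
miR-92b-3p: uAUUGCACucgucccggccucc

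Likeness of pattern was measured as the root mean square difference over the 6 arrays between log2 profiles that were each centred on their own mean. Among 190 miRNAs outside the clusters and detected on all arrays, miR-20b-5p was closest to the mean profile of miR-17-92, at 0.030 log2 units, followed by miR-3593-3p at 0.043 and miR-139-5p at 0.067, beside a median of 0.26. To the mean profile of miR-106b-93-25 the closest were let-7a-5p at 0.035, miR-26a-5p at 0.045 and miR-151-5p at 0.051, beside a median of 0.22. Their log2 fold changes were -0.17, -0.20 and -0.19 for the miRNAs near miR-17-92 and -0.02, -0.08 and -0.12 for those near miR-106b-93-25. With 6 arrays, and members that are alike in sequence to miR-20b-5p, these are descriptions only.

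The tissue is a mixture of cells, and in such bulk samples fewer cells of a type and less RNA per cell cannot be told apart. Of the 6 miRNAs listed for cardiomyocytes, miR-208b-3p alone was undetected on every array. Of the 5 tested, 3 were lower in the model group, miR-1-3p, miR-133a-3p and miR-133b-3p. The others, miR-208a-3p and miR-499-5p, were not called (limma adjusted p = 0.0988 and 0.0929). The summed scaled signal of the list was 114 to 138 among control rats and 60.9 to 85.1 among model rats. It was made up mostly of miR-1-3p and miR-133b-3p, on a scale where 1 is the 75th percentile. All 4 fibroblast miRNAs rose, with sums of 3.85 to 4.74 against 10.2 to 14.4. The paper had listed all 4 as raised on these same arrays, so their rise here is no separate evidence. Both endothelial miRNAs, the arms of miR-126a, were lower, with sums of 8.16 to 9.17 against 5.98 to 6.66. Of the red blood cell miRNAs, miR-144-3p and miR-144-5p were undetected on every array and 1 of the 2 tested, miR-486, was lower. The other, miR-451-5p, was not called (limma adjusted p = 0.132). Their sums, made up mostly of miR-486, were 1.79 to 2.10 against 1.13 to 1.43. Leukocyte miRNAs had 1 higher, miR-155-5p, and 1 lower, miR-150-5p, of 5 tested, with miR-142-5p undetected on every array. Those not called, miR-142-3p, miR-223-3p and miR-146a-5p, had log2 fold changes of -0.07, 0.15 and -0.42. The leukocyte sums, made up mostly of miR-150-5p and miR-146a-5p, were 2.85 to 3.47 against 2.03 to 2.51. Without scaling, 0 of the 214 miRNAs were called lower, and with the totals as deposited 1 was. The lower calls among these markers thus depend on how the arrays were scaled. The part of these cell types in the lower level of miR-92a-3p was not tested.

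The direction of most members turned with the scaling. Without scaling, 1 of the 8 members, miR-92a-3p, had a log2 fold change below 0, at -0.13, and the other 7 lay between 0.06 and 0.25. With the 75th percentile taken over every miRNA on the array, the 8 lay between -0.50 and -0.11. With centring on the median deviation, miR-106b-5p and miR-93-5p were both at 0.13, miR-92a-3p was at -0.25, and the other 5 lay between -0.06 and 0.01.

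**Figure D5:**
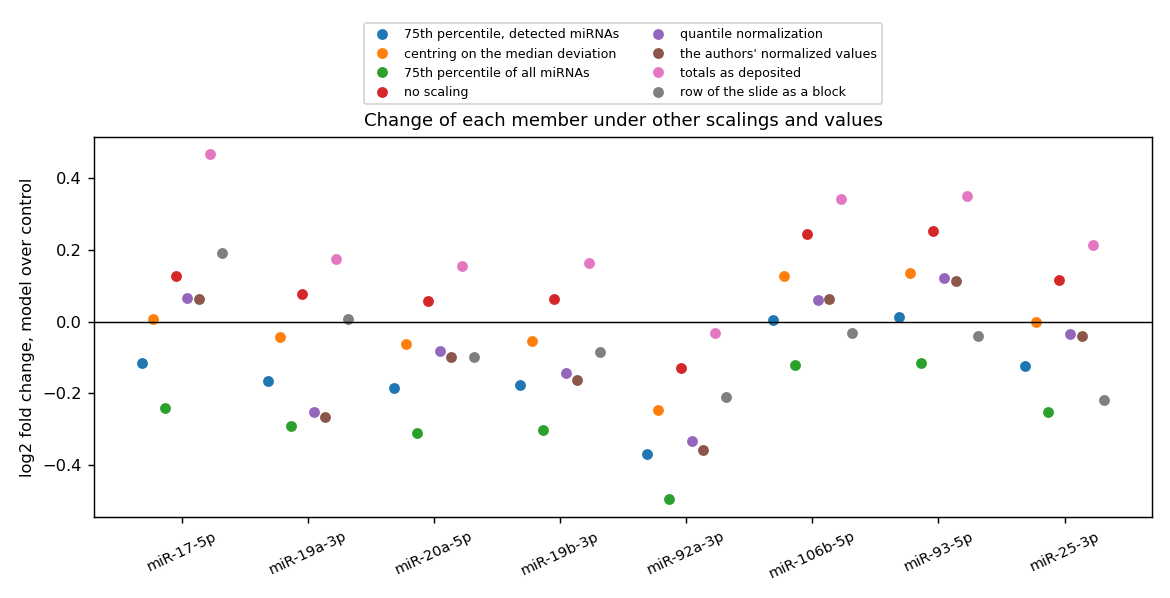
Log2 fold change of each detected member, model over control (vertical axis), under 8 ways of scaling or taking the values, 1 colour each. A change of array scaling moves the members up or down together, from -0.50 to -0.11 when the 75th percentile is taken over all miRNAs to -0.13 to 0.25 without scaling, and miR-92a-3p is the lowest member in each of the 8 settings except the block for slide row, where miR-25-3p is.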

How the data were processed

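The authors deposited scanner output of Agilent Feature Extraction 10.7.1.1 for 6 arrays. Its intensity values had the background removed and no scaling between arrays. A table of normalized log2 values was deposited too, whose method is not given in the sources used here. Samples were grouped by their condition label, as 3 control and 3 model rats. The members, lists and tests were chosen with earlier results of these data known.

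The signal of a miRNA was the sum of its probes with a signal over 3 times the error, since the deposited totals can hold another miRNA's signal. Each array was scaled to its 75th percentile over the 198 miRNAs found on all 6, with a floor of -6.50 on the log2 scale, the largest of the per-array minima of detected signal. The 214 miRNAs found on all arrays of either group were tested without covariates by limma 3.58.1, run under R 4.3.3, with Benjamini-Hochberg adjustment. Single miRNAs were also compared by exact permutation tests. Differences between members are given without a test.

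The fit was tested on simulated data. Precision is limited by having 3 rats a group and by detection of dim probes. The rats are separate animals, so p-values measure the spread between them. The miRNAs named were the 9 members, the other arms of their precursors, the miR-106a-363 cluster, miRNAs on the array with a member's seed, the 3 miRNAs outside the clusters nearest to each cluster's mean profile, and fixed cell type markers. Alternatives were averaging processed probe signals, the totals as deposited, normexp with an offset of 50, other scalings, a floor of 1, other detection filters, the methods' t-test, an intensity trend, replicate and slide row blocks, the authors' values, and each array left out. Sequences and their coordinates are RefSeq's, on GRCr8; the array files name no genome build. Python 3.11.15, pandas 2.3.3, numpy 2.4.6, scipy 1.17.1 and matplotlib 3.10.9 were used.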

Additional observations from a re-analysis of the deposited data

How the results depend on the processing

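The count of 49 miRNAs past the adjusted p became 19 without scaling, 26 with the methods' t-test, 16 with the replicate block, 29 with a block for slide row and 11 within row 1 of the slide. It ran from 14 to 39 with each array left out. The 1 member called, miR-92a-3p, became 0 with normexp, no scaling, median centring, the 75th percentile of all miRNAs, quantile normalization, the t-test, the replicate block, the authors' values and both row settings. With arrays left out the members called numbered 0 or 1. With the totals as deposited the 1 call was miR-93-5p, at 0.35 (limma adjusted p = 0.0470), and miR-92a-3p was not called. The signals of both are unchanged in that setting, where only the array scaling differs. The difference between the clusters was 0.057 within row 1, where 1 model array is left, -0.28 to -0.10 with arrays left out, -0.075 with normexp, -0.12 with the totals as deposited, and -0.21 to -0.17 in the other settings that gave one.

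Reversed directions were as follows, and none of these values passed the test. With the totals as deposited, miR-17-5p was at 0.47, miR-19a-3p at 0.17, miR-19b-3p at 0.16, miR-20a-5p at 0.15 and miR-25-3p at 0.21. Without scaling they were at 0.13, 0.076, 0.064, 0.057 and 0.12 in the same order. miR-17-5p was at 0.065 with quantile normalization, 0.063 with the authors' values, 0.0086 with median centring and 0.19 in both row settings. In both row settings miR-19a-3p was at 0.0072, miR-106b-5p at -0.032 and miR-93-5p at -0.040. With the 75th percentile of all miRNAs miR-106b-5p was at -0.12 and miR-93-5p at -0.11, and with normexp miR-93-5p was at -0.039. With arrays left out, miR-106b-5p ran from -0.12 to 0.048 and miR-93-5p from -0.039 to 0.016. With the totals as deposited, only the array scaling differs for members other than miR-17-5p, whose totals can hold miR-16-5p. Other causes were not tested.

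The rats were not treated as paired by replicate number. Deviations of same-numbered arrays from their group means correlated across miRNAs at -0.26, 0.03 and 0.24. With 3 arrays per group such correlations cannot exclude a pairing. With the replicate block, miR-92a-3p had a limma adjusted p of 0.114. All arrays share 1 slide and scan time, so a block for these was not run. With 3 arrays per group, changes as small as most of those seen here lie within the error.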

Other observations

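For miR-17-5p, the total that the scanner software wrote does not equal the sum of its own probes on 4 of the 6 arrays. On control arrays 1 and 3 the deposited totals were 721 and 657, where its detected probes sum to 10.9 and 11.3. On model arrays 2 and 3 they were 1085 and 868, where the probes sum to 13.2 and 11.2. On each of these 4 arrays the excess equalled the deposited total of miR-16-5p, within a relative tolerance of 0.0001. The arrays on which the total was free of this, control array 2 and model array 1, are those on which both of its probes were detected. The other 7 detected members had no total above the sum of their detected probes, within that tolerance, on any of the 6 arrays. In the authors' normalized values miR-17-5p lay between 3.57 and 4.21 on the log2 scale over the 6 arrays.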
